A study of Mus musculus with 12 samples.

Results

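Organoids given an inhibitor of lactate dehydrogenase together with lactate (LDHi+lactate) were compared with untreated control organoids, to describe what remained different from control although lactate was present. The samples were chosen by their labels, and 8 of the 12 samples of the study belong to these groups, with 4 libraries each that carry the replicate numbers 1 to 4. The organoids were grown to day 7 from 1 mouse embryonic stem cell line in which GFP replaces 1 allele of Rax, so every group carries this allele. LDHi+lactate organoids received 20 µM GNE-140, which inhibits lactate dehydrogenase, for 3 days with 25 mM sodium L-lactate, and control organoids received neither agent. The remaining 4 samples, given 20 µM GNE-140 alone for 3 days (LDHi), entered the same model and their values are set beside the others. According to the labels lactate was given 12 h ahead of the inhibitor, whereas the study's methods describe lactate added with the inhibitor present. A group given lactate alone was not analysed here, so effects of lactate and of the remaining inhibition cannot be told apart in this comparison.

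Lactate dehydrogenase converts pyruvate to lactate, which turns NADH into NAD+, and the reverse conversion turns NAD+ back into NADH. Stem cells in such organoids first leave the pluripotent state, then form an optic vesicle, and the vesicle divides into neural retina and pigment epithelium under the control of eye field transcription factors, retinoic acid, Wnt, FGF and BMP signals. Organoids can also hold other neural regions, mesenchyme and residual stem cells, and in bulk RNA fewer cells of a type and less RNA per cell cannot be told apart.

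Levels are given as counts scaled to the effective library size (CPM), over total counts of 25209097 to 48271386 in control libraries and 29255114 to 42489921 in LDHi+lactate libraries. Replicates 1 and 2, labelled eye organoid, were sequenced more deeply than replicates 3 and 4, whose cell type is labelled retina progenitors. The summed level of 7 retina progenitor markers was 1089 to 1574 CPM in control and 1057 to 1315 CPM in LDHi+lactate libraries, and none of the 7 was below 0.1 CPM in every library. The summed level of 4 pluripotent cell markers (Pou5f1, Nanog, Zfp42 and Esrrb) was 135.9 to 300.5 CPM in control and 311.7 to 690.6 CPM in LDHi+lactate libraries, without overlap. That of 4 mesenchyme markers was 137.9 to 328.3 CPM and 119.9 to 139.8 CPM, and that of 6 pigment epithelium markers was 141.9 to 925.1 CPM and 70.0 to 439.7 CPM. Gm26917, a noncoding RNA whose gene lies in a ribosomal RNA repeat and whose level can follow ribosomal RNA left in a library, was higher in LDHi+lactate, at 120.9, 159.3, 239.2 and 205.2 CPM in control and 393.6, 734.2, 538.1 and 296.2 CPM in LDHi+lactate (log2 fold change 1.41, standard error (SE) 0.20, adjusted p = 0.00701). The part of ribosomal RNA in the results below was not tested.

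In LDHi+lactate organoids a number of stem cell and p53 target genes were higher than in control organoids and a number of pigment cell, retinoic acid, smooth muscle, Hox and mesenchyme genes were lower, while 13 of the 14 eye genes that the study names did not pass the test. With the replicate number as a block, edgeR's quasi-likelihood test called 740 genes higher (4.18% of 17721 tested) and 686 lower (3.87%) at an adjusted p under 0.05. The LDHi+lactate libraries lay wholly above the control libraries for 376 genes (2.12%) and wholly below for 374 (2.11%). The calls depend on the block: without it edgeR called 0 genes (1653 had an unadjusted p under 0.05, against 4682 with the block), and DESeq2 called 113 higher and 129 lower. Without replicate 1, 38 genes were higher and 51 lower, against 348 and 344 without replicate 2, 242 and 139 without replicate 3, and 129 and 133 without replicate 4. All adjusted p values below are from edgeR with the block unless stated, and none of the genes named passed without the block by edgeR.

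**Figure D1:**
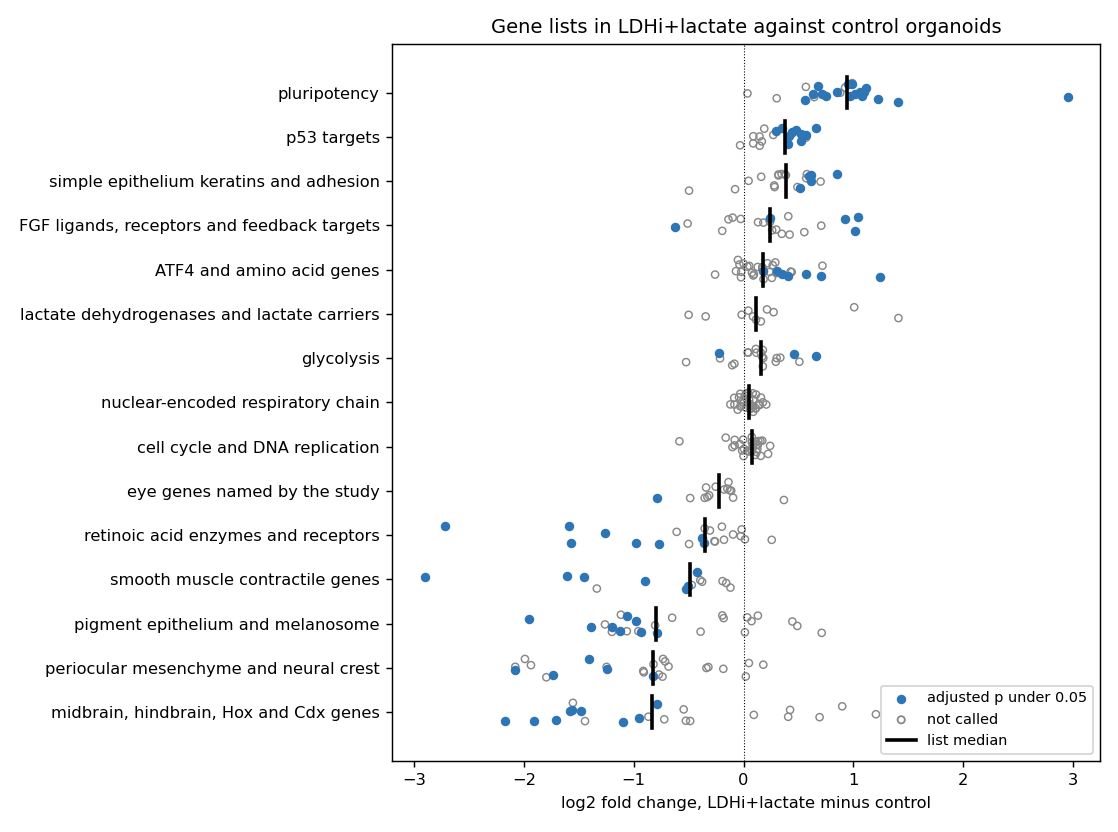
Log2 fold change of LDHi+lactate against control (horizontal axis) for the tested genes of 15 gene lists (rows). Filled points are genes called at an adjusted p under 0.05, open points are not called, and black bars are list medians. The pluripotency list has the highest median (0.94), the midbrain, hindbrain, Hox and Cdx list the lowest (-0.83).

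Most pluripotency genes listed remained higher than in control. All 24 listed genes were tested, 17 were called higher and none lower, and the median log2 fold change was 0.94, against 0 over all genes tested. All 24 values were positive, from 0.04 to 2.96, and for 7 genes the groups did not overlap. In LDHi organoids, which share the control libraries, the list median was 1.28.

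Zfp42 (ENSMUSG00000051176, chromosome 8, 43295063 to 43306980), a marker of naive embryonic stem cells also known as Rex1, had 25.1, 53.3, 40.8 and 38.5 CPM in control replicates 1 to 4 and 62.2, 144.3, 84.2 and 79.7 CPM in LDHi+lactate. Every LDHi+lactate library lay above every control library, and replicate 2 was the highest of both groups. Zfp42 was 2.33-fold higher (log2 fold change 1.22, SE 0.13, adjusted p = 0.00392), and LDHi organoids had 73.2 to 141.2 CPM. Klf4, a transcription factor that sustains the stem cell state, had 33.1, 42.3, 31.7 and 33.1 CPM in control and 48.1, 60.4, 60.4 and 49.5 CPM in LDHi+lactate. The groups again did not overlap, and its log2 fold change was 0.64 (SE 0.08, adjusted p = 0.00579). Trim43a, of a gene family active in the early embryo, was close to absent in control at 0.143, 0.196, 0.384 and 0.387 CPM and reached 1.45, 3.21, 1.51 and 2.20 CPM in LDHi+lactate. Its log2 fold change of 2.96 (SE 0.36, adjusted p = 0.00599) was the largest of the genes named as higher, although reads of near-identical family members may be shared with it.

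Nanog, a core regulator of pluripotency (outside the rule for named genes and shown for its promoter), had 42.7, 90.3, 69.9 and 55.2 CPM in control and 87.5, 164.9, 127.0 and 116.0 CPM in LDHi+lactate. Each LDHi+lactate library was above the control of the same number, but replicate 1 with lactate lay below control replicate 2, so the groups overlapped. Its log2 fold change was 0.96 (SE 0.14, adjusted p = 0.00699), and Pou5f1, which encodes Oct4, was also higher (1.10, SE 0.19, adjusted p = 0.0139). Dppa3, a germ cell and stem cell gene, had a log2 fold change of 0.93 and did not pass (SE 0.26, adjusted p = 0.0575). The Nanog promoter holds the joined octamer and Sox motif, TTTGCAT and ACAATG with 1 base between them, that Oct4 and Sox2 are known to bind there. It is shown 5′ to 3′ on the gene's strand, from RefSeq on GRCm38.p6 at chr6:122707369-122707472, with the motif in capitals, 75 to 62 bases before the start.
Nanog: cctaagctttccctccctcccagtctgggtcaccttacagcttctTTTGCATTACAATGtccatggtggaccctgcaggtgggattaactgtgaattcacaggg
On either strand, this motif occurred in 2 of 32851 promoters of 300 bases (0.00609%), and both were promoters of Nanog. Nanog is 1 of the 16 listed pluripotency genes with a promoter in the table, so the share over all promoters is no separate background for the list. The number of list members called was 4 without replicate 1, 16 without replicate 2, 15 without replicate 3 and 11 without replicate 4. Zfp42, Klf4 and Trim43a kept their calls whichever replicate was left out, while Nanog and Pou5f1 missed the threshold without replicate 1 (adjusted p = 0.0523 and 0.0701).

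Of 20 listed genes activated by the transcription factor p53, which responds to DNA damage and other stress, 10 were called higher and none lower, with a median log2 fold change of 0.38. In all 4 replicate pairs 17 of the 20 were higher, against 3304 of 17721 over all genes tested. In LDHi organoids the list median was 0.48. Gtse1, a p53-binding protein of G2 and S phase, had 98.4, 106.7, 124.7 and 103.8 CPM in control and 129.0, 161.1, 184.7 and 134.0 CPM in LDHi+lactate, without overlap (log2 fold change 0.48, SE 0.06, adjusted p = 0.00609). Phlda3, an inhibitor of Akt, had 64.3, 68.7, 102.6 and 75.2 CPM in control and 97.2, 108.6, 145.6 and 94.0 CPM in LDHi+lactate. Its groups overlapped through control replicate 3, and its log2 fold change was 0.52 (SE 0.07, adjusted p = 0.00629). Trp53inp1 had a log2 fold change of 0.52 (SE 0.07, adjusted p = 0.00699).

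Among the other p53 targets called were Cdkn1a, the cell cycle inhibitor p21 (log2 fold change 0.66, adjusted p = 0.0133), Mdm2, the ubiquitin ligase that degrades p53 (0.44, adjusted p = 0.00721), and Bax, which promotes apoptosis (0.41, adjusted p = 0.0107). These 3 are outside the rule for named genes. Perp, a membrane protein gene, had 6.23 to 11.8 CPM in control and 8.53 to 20.1 CPM in LDHi+lactate and did not pass (log2 fold change 0.57, SE 0.17, adjusted p = 0.0671). The list held 4 called genes without replicate 1, 9 without replicate 2, 6 without replicate 3 and 8 without replicate 4. Gtse1, Phlda3, Trp53inp1 and Mdm2 were called whichever replicate was left out. Cdkn1a missed the threshold without replicate 1, 2 or 3 (adjusted p = 0.0597, 0.0507 and 0.0641) and Bax without replicate 1 (0.0657).

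Some targets of FGF signaling, which runs through Ras and ERK, were higher, and others did not pass. Of 21 genes of the FGF pathway, 4 were higher and 1 lower, with a median of 0.24. Etv5 and Etv4, transcription factors induced by FGF, did not overlap between the groups. Etv5 had 30.1, 57.4, 37.7 and 44.6 CPM in control and 62.8, 122.8, 77.0 and 62.9 CPM in LDHi+lactate (log2 fold change 0.92, SE 0.14, adjusted p = 0.00904). Etv4 had 10.2 to 18.1 CPM in control and 19.2 to 44.8 CPM in LDHi+lactate (log2 fold change 1.01, SE 0.20, adjusted p = 0.0193). The inhibitors of the pathway Spry4 and Spred2, outside the rule for named genes, were at 1.05 and 0.24 on the log2 scale (adjusted p = 0.039 and 0.0449). The receptor gene Fgfr2, whose annotated span meets several other genes, was lower (-0.62, SE 0.13, adjusted p = 0.0238), and Spry1 did not pass (0.42, adjusted p = 0.0932). Of the other listed targets, Il17rd, Dusp6, Spry2, Etv1, Dusp4 and Spred1 did not pass either (adjusted p = 0.157 to 0.8045). The list held no called gene without replicate 1, 1 higher and 1 lower without replicate 2 or 3, and 2 higher without replicate 4. Etv5 missed the threshold without replicate 1 (adjusted p = 0.0552), Etv4 without replicate 1, 2 or 3 (0.0881, 0.068 and 0.0651), and Fgfr2 without replicate 1 or 4 (0.0888 and 0.106). Spry4 and Spred2 missed it whichever replicate was left out (adjusted p = 0.0641 to 0.191).

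Genes of simple epithelium, the keratins and adhesion proteins of unlayered cell sheets, were higher in 5 of 21 cases and lower in none, with a median of 0.39. In all 4 replicate pairs 16 of the 21 were higher, against 3304 of 17721 over all genes tested. Cdh1, the adhesion protein E-cadherin, had 63.9, 114.8, 74.4 and 76.6 CPM in control and 84.4, 191.4, 117.4 and 121.8 CPM in LDHi+lactate. The groups overlapped through control replicate 2, although each number was higher with LDHi+lactate (log2 fold change 0.62, SE 0.09, adjusted p = 0.00701). Krt8, a keratin, had a log2 fold change of 0.62 (SE 0.11, adjusted p = 0.0126), and Grhl3, an epithelial transcription factor, of 0.85 (SE 0.17, adjusted p = 0.0207). Spint2 was at 0.32 and did not pass (adjusted p = 0.0535). Cdh1 is also expressed by embryonic stem cells, and the part of the pluripotent cells in its change was not tested. The list held 2, 4, 1 and 2 called genes without replicates 1, 2, 3 and 4. Cdh1 kept its call whichever of them was left out, Krt8 missed it without replicate 2 or 3 (adjusted p = 0.0501 and 0.0641), and Grhl3 without replicate 1, 3 or 4 (0.0881, 0.0687 and 0.063).

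Of 32 genes of ATF4 and amino acid supply, which cells raise when amino acids run short or proteins misfold, 7 were higher and none lower, with a median of 0.18. Sesn2, which restrains growth signaling and is also listed as a p53 target, had 187.7 ± 71.2 CPM in control and 241.7 ± 99.9 CPM in LDHi+lactate (SD, n = 4). Replicates 1 and 2 were higher than 3 and 4 in both groups, and the log2 fold change was 0.35 (SE 0.06, adjusted p = 0.0112). Trib3, a stress-induced pseudokinase, had a log2 fold change of 0.71 (SE 0.14, adjusted p = 0.0167), and Slc7a1, a carrier of arginine and lysine, of 0.31 (SE 0.06, adjusted p = 0.0184). Atf5 did not pass (0.44, adjusted p = 0.068), and it overlaps Nup62 on the other strand, which held 96.2% as many counts. Without replicate 1 the list held no called gene, and without replicates 2, 3 and 4 it held 5, 2 and 1. Sesn2 missed the threshold without replicate 1 (adjusted p = 0.0671), Trib3 without replicate 1, 3 or 4 (0.0649, 0.0686 and 0.0514) and Slc7a1 without replicate 1 or 4 (0.0963 and 0.0846).

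**Figure D2:**
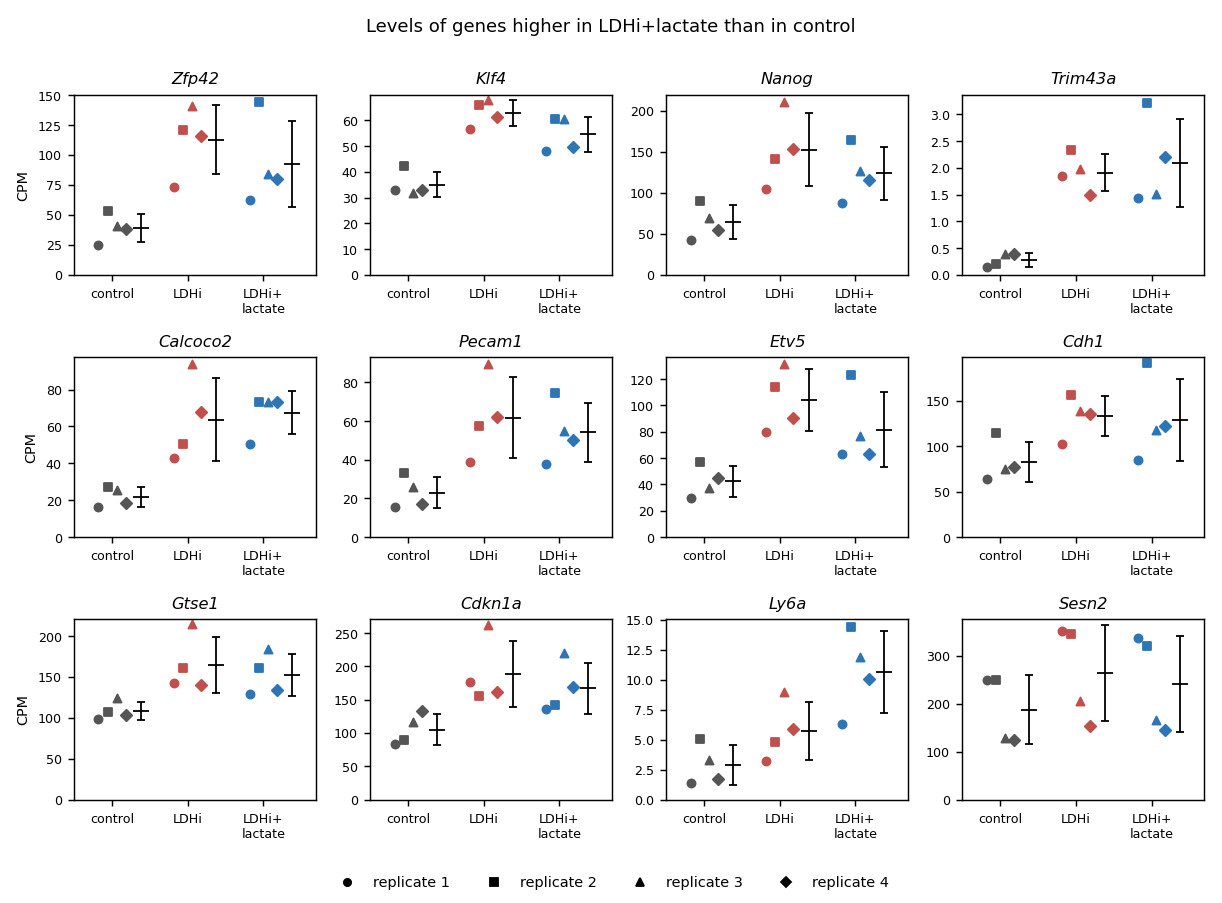
Levels of 12 genes (CPM, vertical axes linear and starting at 0) by group. Each symbol is 1 library, its shape gives the replicate number, and black bars are the mean and SD of 4 libraries. Zfp42 averages 39.4 CPM in control and 92.6 CPM in LDHi+lactate, and Calcoco2 21.99 and 67.48 CPM.

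Outside the lists, Calcoco2, which encodes an autophagy receptor, was among the most clearly separated genes. It had 16.1, 27.2, 25.8 and 18.8 CPM in control and 50.3, 73.0, 73.2 and 73.4 CPM in LDHi+lactate, every library of which lay above the highest control. It was 3.08-fold higher (log2 fold change 1.62, SE 0.15, adjusted p = 0.00354). Pecam1, an adhesion protein of endothelium that embryonic stem cells also express, had 15.6, 33.2, 25.7 and 17.4 CPM in control and 37.7, 74.4, 54.7 and 50.2 CPM in LDHi+lactate, without overlap (log2 fold change 1.26, SE 0.16, adjusted p = 0.00629). The summed level of 4 blood and endothelium markers was 20.9 to 39.8 CPM in control and 49.8 to 87.1 CPM in LDHi+lactate, but most of it was Pecam1 itself. Of the others, Cdh5 did not pass (adjusted p = 0.406), and Hbb-bh1 and Hba-x were at 0.309 CPM or less in these libraries. Ly6a, the surface antigen Sca-1, had 1.41, 5.05, 3.26 and 1.74 CPM in control and 6.27, 14.4, 11.9 and 10.04 CPM in LDHi+lactate (log2 fold change 1.95, SE 0.26, adjusted p = 0.00654), with 3.22 to 8.98 CPM in LDHi. Calcoco2, Pecam1 and Ly6a kept their calls whichever replicate was left out.

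The remaining genes with the largest increases were expressed at low levels. Pramel6 and Pramel7, of a family expressed in early embryos and stem cells, were higher by 1.99 and 1.60 on the log2 scale (adjusted p = 0.00803 and 0.0311), and all 3 Pramel genes tested were called. Nlrp4c, of a family expressed in oocytes and early embryos, was at 1.57 (adjusted p = 0.0268), and Platr27, a noncoding RNA, at 1.79 (adjusted p = 0.00657). Members of the Pramel, Nlrp and Trim43 families resemble each other closely, so their separate counts are uncertain. Aoah, an enzyme that deacylates lipopolysaccharide, was at 1.53 (adjusted p = 0.00699), Mep1b, a subunit of the protease meprin, at 1.54 (adjusted p = 0.0204), and Fetub, fetuin B, at 1.63 (adjusted p = 0.0141). Slc39a2, a zinc carrier, was at 1.51 (adjusted p = 0.036), and it overlaps Mettl17, which held 10452 counts over the 12 libraries against 808. The transcripts Gm5662, Gm49448, 4833407H14Rik and Gm34653 were higher by 1.57 to 1.78. Each gene of this paragraph missed the threshold without replicate 1 (adjusted p = 0.0507 to 0.141), and Pramel6, Pramel7, Nlrp4c, Mep1b, Fetub, Slc39a2, Gm5662, Gm49448 and Gm34653 also without replicate 4 (0.0514 to 0.129). Pramel7, Gm5662 and Gm34653 missed it without replicate 2 as well (0.0507 to 0.0684), and Nlrp4c, Slc39a2, Gm49448 and Gm34653 without replicate 3 (0.0564 to 0.127).

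Of the 14 that the study names, 1 was called lower, none was called higher and the median log2 fold change was -0.22, against -2.11 for LDHi against the same control libraries. These genes were picked by the study from the same libraries, so the list is not independent evidence of its direction. In LDHi+lactate 13 of the 14 values were negative, from -0.79 to -0.10, and Fzd5 was at 0.37 (adjusted p = 0.282). Rax, the eye field gene that carries GFP, had 35.9, 24.9, 33.0 and 12.7 CPM in control and 23.8, 18.1, 34.1 and 20.4 CPM in LDHi+lactate. It was lower than control in replicates 1 and 2 and higher in 3 and 4, and its log2 fold change was -0.13 (SE 0.25, adjusted p = 0.789). Apart from Rax and Mitf, the standard errors ranged from 0.17 for Six3 (log2 fold change -0.15) to 0.52 for Aldh1a7 (-0.10) and 0.82 for Tbx5 (-0.25). Tbx2 (-0.34), Shisa2 (-0.33), Six6 (-0.31), Pax2 (-0.18), Fgf9 (-0.14), Gdf6 (-0.11) and Vax2 (-0.49) had adjusted p values of 0.466 to 0.859. The median over the list was -0.73 in replicates 1 and 2 and 0.26 in replicates 3 and 4, a difference that was not tested for the list. With replicates 1 and 2 alone 3 of the 14 were lower and 0 higher (181 and 300 of 18482 over all genes). With replicates 3 and 4 alone 1 was lower and 1 higher (752 and 506 of 17282 over all genes).

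**Figure D3:**
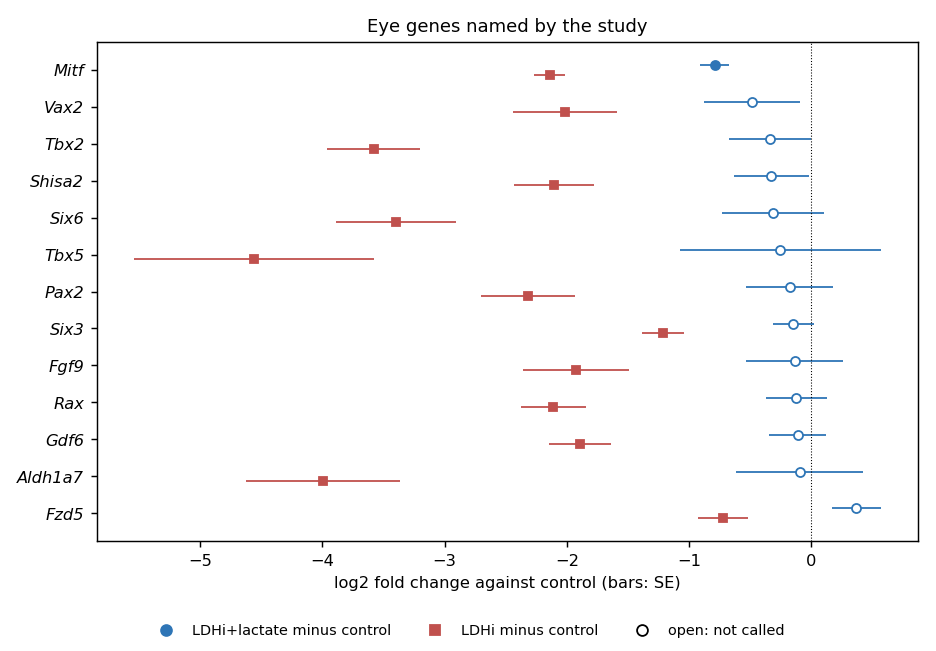
Log2 fold change against control (horizontal axis, bars are standard errors) of 13 of the 14 eye genes that the study names, for LDHi+lactate (blue circles) and LDHi (red squares), which share the control libraries. Filled symbols are called at an adjusted p under 0.05. Mitf is the only gene called in LDHi+lactate, at -0.79.

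Among 14 eye field and retina progenitor factors, 2 were higher and none lower, with a median of -0.23. Tbx3, a factor of the dorsal eye that also sustains stem cells, had 28.1, 37.1, 38.1 and 41.5 CPM in control and 44.4, 72.7, 84.6 and 64.7 CPM in LDHi+lactate, without overlap (log2 fold change 0.85, SE 0.10, adjusted p = 0.00579). Sox2, a factor of neural and stem cells, had 373.4, 349.9, 377.5 and 501.9 CPM in control and 451.2, 463.3, 467.3 and 574.1 CPM in LDHi+lactate (log2 fold change 0.29, SE 0.05, adjusted p = 0.0126), with 568.1 to 681.7 CPM in LDHi. Both genes also belong to networks active in stem cells, whose markers were higher in these libraries, and that part was not tested. Hmx1, a homeobox gene of the retina, and Mab21l2, an eye development gene, were at -0.87 (SE 0.28, adjusted p = 0.0808) and -0.68 (SE 0.20, adjusted p = 0.0614). Of 24 genes of optic cup axes, 1 was higher and 2 lower, with a median of -0.21, and Sfrp1, a secreted Wnt inhibitor, had 316.8 to 444.5 CPM in control and 214.4 to 289.4 CPM in LDHi+lactate (log2 fold change -0.59, SE 0.14, adjusted p = 0.0293). Tbx3 kept its call whichever replicate was left out, Sox2 missed it without replicate 1 or 3 (adjusted p = 0.0671 and 0.0596), and Sfrp1 whichever of the 4 was left out (0.0545 to 0.121).

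Of 26 listed genes of the pigment epithelium and its melanosomes, 25 were tested (all but Rpe65), 8 were lower, none was higher and the median log2 fold change was -0.80, against -1.62 in LDHi. The groups overlapped for every one of the 25, since control replicates differed widely. In all 4 replicate pairs 12 of the 25 were lower, against 3004 of 17721 over all genes tested. Mitf, the transcription factor that directs pigment cells, had 83.2, 40.9, 90.0 and 73.3 CPM in control and 42.7, 23.9, 57.2 and 43.1 CPM in LDHi+lactate. Every LDHi+lactate library was below the control of its number, and LDHi libraries were lower still at 10.8 to 21.7 CPM. The log2 fold change of Mitf was -0.79 (SE 0.12, adjusted p = 0.0088).

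Tyrp1 (ENSMUSG00000005994, chromosome 4, 80834123 to 80851719) and Dct encode enzymes of melanin synthesis. Tyrp1 had 15.9, 0.697, 4.38 and 21.9 CPM in control and 5.01, 0.135, 1.30 and 4.36 CPM in LDHi+lactate, 3.86-fold lower (log2 fold change -1.95, SE 0.22, adjusted p = 0.00535). Dct had 286.3, 54.9, 110.6 and 169.5 CPM in control and 136.8, 23.3, 48.6 and 66.7 CPM in LDHi+lactate (log2 fold change -1.20, SE 0.22, adjusted p = 0.0154). In both genes replicate 2 was the lowest of each group, and each LDHi+lactate library was below the control of its number. Trpm1, an ion channel of pigment cells, did not pass (-1.06, SE 0.33, adjusted p = 0.0749). Outside the rule for named genes, the melanosome genes Pmel, Slc45a2 and Oca2 and the retinaldehyde-binding protein gene Rlbp1 had log2 fold changes of -1.12, -1.39, -1.06 and -0.93 (adjusted p = 0.0373, 0.0301, 0.0331 and 0.02), and Pmel overlaps Cdk2, which held 69.2% as many counts.

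The promoters of Tyrp1 and Dct hold the M-box, TCATGTG on either strand, a motif that Mitf is known to bind. They are printed 5′ to 3′ on the gene's strand from RefSeq on GRCm38.p6, at chr4:80834155-80834183 and chr14:118052427-118052496, with the motif in capitals, and the Dct motif shown lies on the opposite strand. A further M-box of the Dct promoter, on the gene's own strand at bases -151 to -145 from the start, lies outside the stretch shown.
Tyrp1: tggggagggagTCATGTGctgcctagtag
Dct: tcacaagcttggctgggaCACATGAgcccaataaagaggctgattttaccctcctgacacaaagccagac
The motif was found in 5 of the 18 listed pigment genes with a promoter in the table (Dct, Slc24a5, Trpm1, Tyr and Tyrp1, of which 2 were called) and in 3.77% of all 32851 promoters of 300 bases. The pigment list held 1 gene called lower without replicate 1, 5 without replicate 2, 3 without replicate 3 and 8 without replicate 4. Tyrp1 kept its call whichever replicate was left out, Mitf missed it without replicate 1 (adjusted p = 0.0523), and Dct without replicate 1 or 3 (0.0552 and 0.0753). Pmel missed it without replicate 1, 2 or 3 (0.0958 to 0.11), Slc45a2 without replicate 1, 2 or 4 (0.0531 to 0.13), Oca2 whichever replicate was left out (0.0539 to 0.132) and Rlbp1 without replicate 1 or 3 (0.0539 and 0.0931).

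Of 21 listed genes of retinoic acid, the vitamin A derivative that patterns the eye and hindbrain, 8 were lower and none higher, with a median of -0.35, against -1.26 in LDHi, and for 4 genes the groups did not overlap. Among the degrading enzymes, Cyp26c1 had 2.52, 5.90, 3.15 and 1.90 CPM in control and 0.420, 1.65, 0.206 and 0.203 CPM in LDHi+lactate, without overlap and 6.57-fold lower (log2 fold change -2.72, SE 0.34, adjusted p = 0.00609). Cyp26b1, outside the rule for named genes, was also lower (-1.59, SE 0.30, adjusted p = 0.016). Of the binding proteins, Crabp1 had 275.2, 334.1, 306.4 and 408.0 CPM in control and 204.6, 122.7, 140.2 and 220.1 CPM in LDHi+lactate. Its groups did not overlap, LDHi libraries had 114.0 to 164.9 CPM, and its log2 fold change was -0.98 (SE 0.13, adjusted p = 0.00629). Crabp2, outside the rule, was at -0.38 (SE 0.07, adjusted p = 0.0164).

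Among the receptors, Rara had 42.1, 39.5, 47.2 and 47.5 CPM in control and 30.5, 34.8, 36.7 and 35.4 CPM in LDHi+lactate, without overlap (log2 fold change -0.36, SE 0.07, adjusted p = 0.0143). Rarb, outside the rule and shown for its promoter, had 16.4, 7.40, 13.2 and 20.2 CPM in control and 10.6, 3.75, 3.60 and 7.00 CPM in LDHi+lactate (log2 fold change -1.26, SE 0.23, adjusted p = 0.0154). It overlaps Top2b on the other strand, with 163541 counts in the 12 libraries together and 3398 for Rarb. Rxrg and the retinol uptake receptor Stra6, also outside the rule, were at -1.57 and -0.77 (adjusted p = 0.0172 and 0.0453), and Dhrs3, a retinaldehyde reductase, did not pass (-0.61, adjusted p = 0.0887). Rarb is a known direct target of retinoic acid receptors, and its promoter holds GTTCA and AGTTCA with 5 bases between them, shown in capitals with the bases between, 5′ to 3′ on the gene's strand, from RefSeq on GRCm38.p6 at chr14:16575506-16575535.
Rarb: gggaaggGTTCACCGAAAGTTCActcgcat
Such a spaced repeat was found, on either strand, in 2 of 17 listed genes with a promoter in the table (Rarb and Cyp26a1) and in 0.0335% of all promoters. Of these 2 genes 1 was called, since the degrading enzyme Cyp26a1 did not pass (adjusted p = 0.939). The list held 3, 4, 3 and 6 genes called lower without replicates 1, 2, 3 and 4. Cyp26c1 and Crabp1 kept their calls whichever replicate was left out. Cyp26b1 missed the threshold without replicate 2 or 3 (adjusted p = 0.0521 and 0.0838), Crabp2 without replicate 1, 2 or 3 (0.0571 to 0.0887), Rara without replicate 1, 3 or 4 (0.0642 to 0.0798), Rarb without replicate 1 or 4 (0.0507 and 0.0736), Rxrg without replicate 1, 2 or 3 (0.0527 to 0.091) and Stra6 whichever replicate was left out (0.0653 to 0.13).

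**Figure D4:**
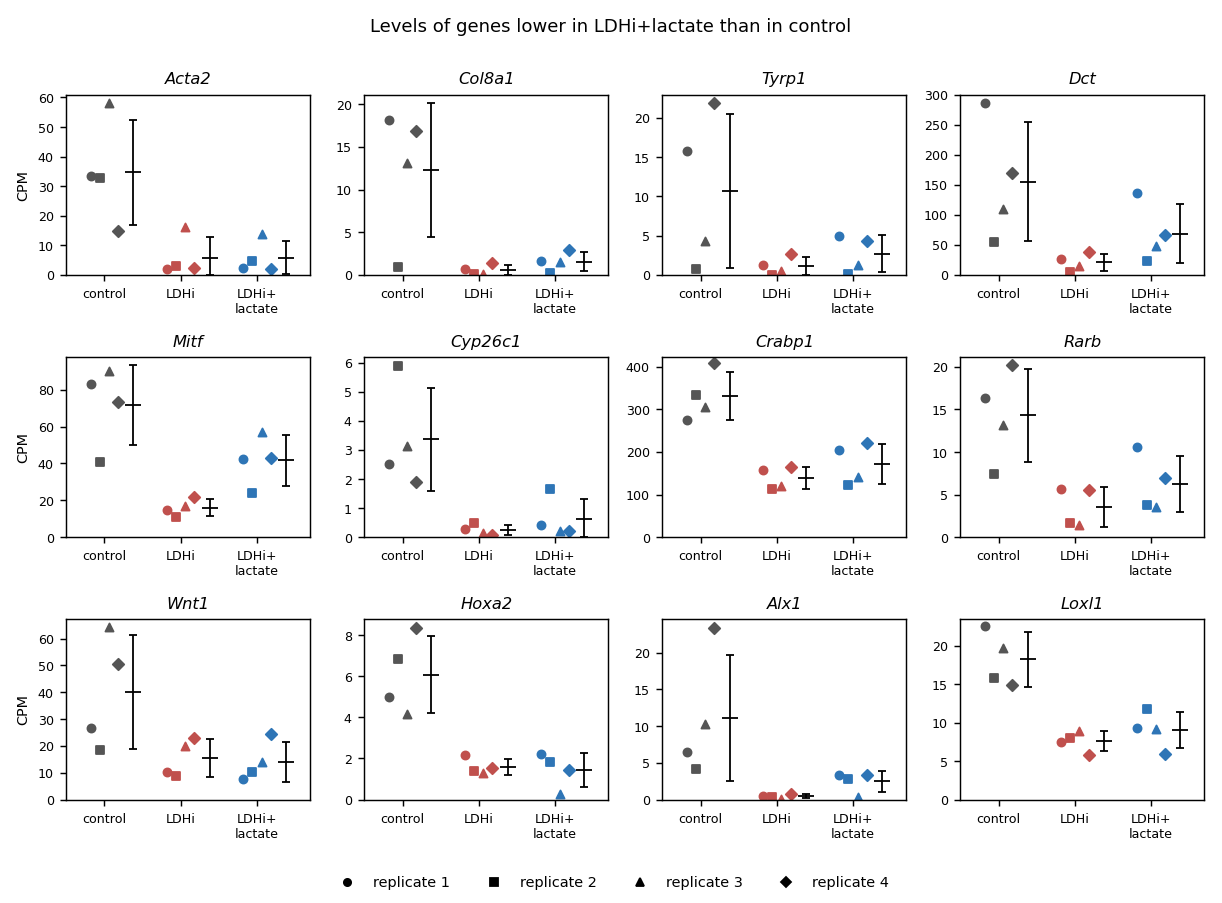
Levels of 12 genes (CPM, vertical axes linear and starting at 0) by group. Each symbol is 1 library, its shape gives the replicate number, and black bars are the mean and SD of 4 libraries, with the lower end drawn no further than 0. Acta2 averages 34.7 CPM in control and 5.80 CPM in LDHi+lactate, and Mitf 71.9 and 41.7 CPM.

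Of 15 listed contractile genes of smooth muscle 14 were tested, 7 were lower and none higher, all 14 log2 fold changes were negative and their median was -0.49, against -0.82 in LDHi. Acta2 (ENSMUSG00000035783, chromosome 19, 34241090 to 34255590), smooth muscle actin, had 33.3, 32.6, 58.0 and 14.98 CPM in control and 2.40, 4.64, 14 and 2.16 CPM in LDHi+lactate. Every LDHi+lactate library was below the lowest control, replicate 3 was the highest of both groups, and LDHi libraries had 1.95 to 16.2 CPM. Acta2 was 7.49-fold lower (log2 fold change -2.91, SE 0.31, adjusted p = 0.00392).

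The calponin Cnn2 was at -0.51 (SE 0.10, adjusted p = 0.0169) and the actin-binding caldesmon Cald1 at -0.43 (SE 0.07, adjusted p = 0.00897), while Tpm1 did not pass (-0.38, adjusted p = 0.0543). Myl9, a regulatory myosin light chain shown for its promoter and outside the rule, had 18.3, 12.0, 21.7 and 14.4 CPM in control and 15.2, 7.86, 8.55 and 5.24 CPM in LDHi+lactate (log2 fold change -0.90, SE 0.23, adjusted p = 0.0421). Its promoter holds a CArG box, the motif of serum response factor, printed in capitals 5′ to 3′ on the gene's strand, from RefSeq on GRCm38.p6 at chr2:156775258-156775357.
Myl9: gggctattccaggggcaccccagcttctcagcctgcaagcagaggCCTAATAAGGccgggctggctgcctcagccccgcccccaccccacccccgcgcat
A CArG box was found in 3 of the 12 listed genes with a promoter in the table (Actc1, Cnn2 and Myl9, all called lower) and in 1.63% of all promoters. The list held 1, 4, 2 and 2 genes called lower without replicates 1, 2, 3 and 4. Acta2 kept its call whichever replicate was left out, Cald1 missed it without replicate 1 (adjusted p = 0.0536), Cnn2 without replicate 1, 3 or 4 (0.071 to 0.0791) and Myl9 whichever replicate was left out (0.0541 to 0.172).

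Matrix genes moved in both directions. Of 32 collagen and matrix genes 31 were tested, 4 were higher and 4 lower, and the median was -0.05. The lower genes included Loxl1, a lysyl oxidase of elastic fibres, with 22.6, 15.8, 19.7 and 14.9 CPM in control and 9.28, 11.7, 9.13 and 5.95 CPM in LDHi+lactate, without overlap (log2 fold change -1.03, SE 0.15, adjusted p = 0.00701). The fibrillar collagens Col2a1 and Col11a1 were at -0.52 (SE 0.11, adjusted p = 0.0236) and -0.54 (SE 0.10, adjusted p = 0.0149). Col8a1, a short-chain collagen outside this list, had the largest fall of the genes named, with 18.1, 0.936, 13.1 and 16.9 CPM in control and 1.61, 0.189, 1.48 and 2.94 CPM in LDHi+lactate. Control replicate 2 was far below the other controls, and each LDHi+lactate library was below its own control (log2 fold change -2.96, SE 0.35, adjusted p = 0.00547). The 4 higher genes, Lama1, Lamc1, Nid1 and Col4a2 (which overlaps Col4a1 in the annotation), encode proteins of the basement membrane.

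Lama1, Nid1 and Col4a2, outside the rule, were at 0.75, 0.50 and 0.54 (adjusted p = 0.0476, 0.0451 and 0.0328), whereas in LDHi they were at 0.37, -0.12 and 0.02 (adjusted p = 0.227, 0.575 and 0.922). Between LDHi+lactate and LDHi themselves, Lama1 differed by 0.38, Nid1 by 0.62 and Col4a2 by 0.51 on the log2 scale (adjusted p = 0.509, 0.0797 and 0.124). The laminin gene Lamb1 did not pass (0.51, SE 0.14, adjusted p = 0.0522). Without replicate 2 the matrix list held 6 higher and 5 lower genes, and without replicate 1, 3 or 4 it held no higher gene and 0, 1 and 2 lower genes. Col8a1 kept its call whichever replicate was left out, Loxl1 missed it without replicate 1 (adjusted p = 0.0534), Col11a1 without replicate 1 or 3 (0.0531 and 0.075) and Col2a1 without replicate 1, 3 or 4 (0.0746 to 0.105). Lama1 and Col4a2 missed it without replicate 1, 3 or 4 (0.112 to 0.184) and Nid1 likewise (0.0722 to 0.197).

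Of 24 listed regulators of the midbrain, hindbrain and spinal cord, Hox and Cdx genes among them, 22 were tested, 9 were lower, none was higher and 13 did not pass. The LDHi+lactate libraries lay wholly below control for 6 genes and wholly above for 1, and 6 of the 22 values were positive. The median was -0.83, against -0.70 in LDHi. Wnt1, a signal of the dorsal neural tube and the border of midbrain and hindbrain, had 26.7, 18.4, 64.3 and 50.7 CPM in control and 7.48, 10.2, 13.97 and 24.5 CPM in LDHi+lactate. It was lower with LDHi+lactate in every replicate number, with an overlap through control replicate 2, and LDHi libraries had 8.70 to 23.1 CPM (log2 fold change -1.48, SE 0.19, adjusted p = 0.00629). Hoxa2, which patterns the hindbrain, had 4.98, 6.84, 4.15 and 8.36 CPM in control and 2.24, 1.81, 0.275 and 1.45 CPM in LDHi+lactate, without overlap and 4.51-fold lower (log2 fold change -2.17, SE 0.36, adjusted p = 0.0118).

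Of 39 Hox genes in the files, a family taken by symbol after the values were seen, 24 were tested, 19 had negative and 5 positive log2 fold changes, and 7 were called lower. These were Hoxa2, Hoxa3, Hoxb2, Hoxb3, Hoxb8, Hoxc4 and Hoxc5. Hoxb2 was at -1.91 (SE 0.33, adjusted p = 0.0131) and Hoxc4 at -1.58 (SE 0.23, adjusted p = 0.00701), both without overlap, and Hoxb4 did not pass (-0.87, adjusted p = 0.0573). Most Hox genes were expressed at low levels, with Hoxc4 at 1.29 to 2.90 CPM in control and 0.459 to 0.961 CPM in LDHi+lactate. Hoxb2 and Hoxb3 overlap the antisense transcript Hoxb3os, which held 245 counts against 570 and 323, and Hoxa3 overlaps Hoxaas2, with 559 counts against 757.

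**Figure D5:**
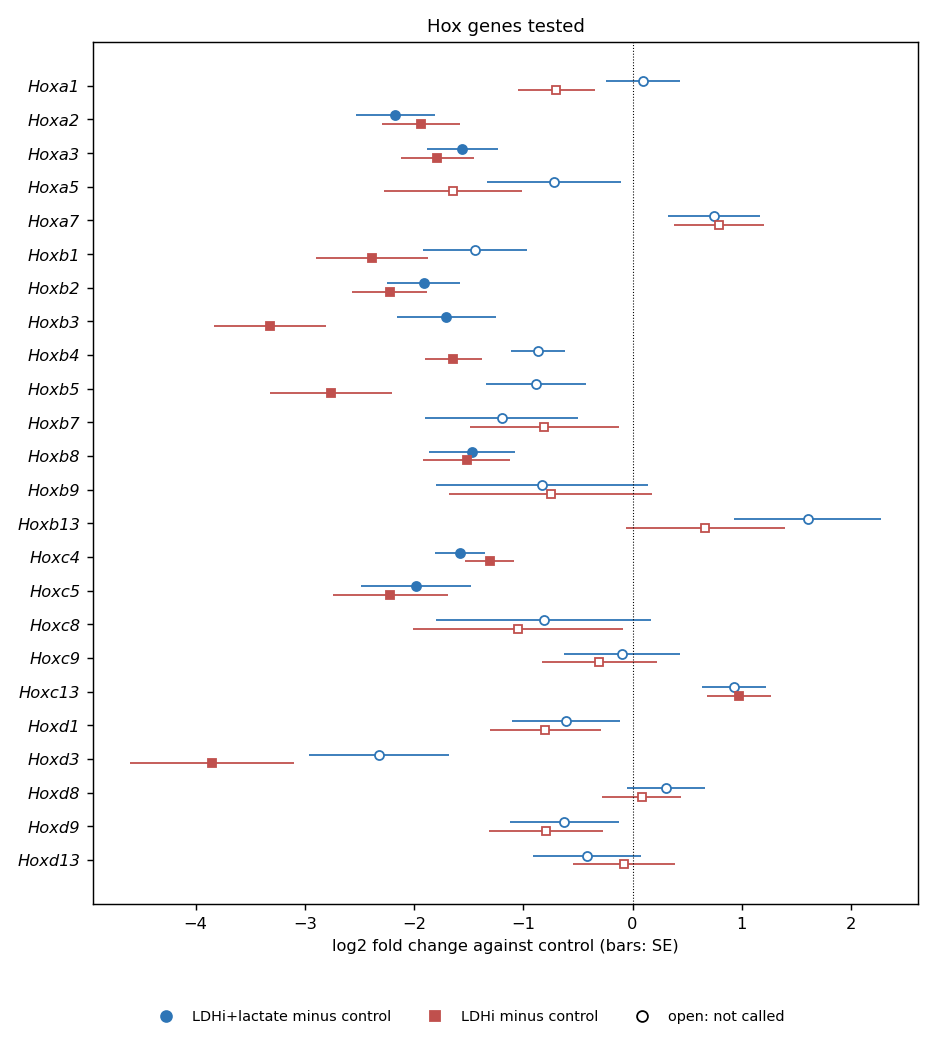
Log2 fold change against control (horizontal axis, bars are standard errors) of the 24 Hox genes tested (rows), for LDHi+lactate (blue circles) and LDHi (red squares), which share the control libraries. Filled symbols are called at an adjusted p under 0.05. Of the 24, 7 are called lower in LDHi+lactate and none higher.

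Other dorsal neural tube genes were among the largest falls. Olig3, of dorsal hindbrain and spinal cord progenitors, had 8.66, 8.84, 20.1 and 39.2 CPM in control and 4.24, 3.83, 1.61 and 8.38 CPM in LDHi+lactate, without overlap (log2 fold change -1.998, SE 0.35, adjusted p = 0.0132). Msx3, a dorsal homeobox gene outside the list like Olig3, had 8.79 to 23.1 CPM in control and 1.92 to 8.56 CPM in LDHi+lactate, also without overlap (-1.76, SE 0.25, adjusted p = 0.00699). Atoh1, a proneural gene of the hindbrain rhombic lip, and Barhl1 did not pass (-2.35, SE 0.71, adjusted p = 0.0673, and -1.53, SE 0.47, adjusted p = 0.0707). With all 4 replicates no gene passed among 28 proneural, Notch and early neuron genes (median -0.38) or among 23 forebrain regulators (median 0). The proneural median was 0.06 in replicates 1 and 2 and -0.84 in replicates 3 and 4. With replicates 3 and 4 alone 13 of 28 proneural genes were lower (752 of 17282 over all genes) and 0 higher. With replicates 1 and 2 alone 1 of 27 was higher (300 of 18482 over all genes) and 0 lower. This difference between the sets was not tested for the list. The midbrain and hindbrain list held 5 lower genes without replicate 1, 5 lower and 1 higher without replicate 2, 4 lower without replicate 3 and 2 lower without replicate 4. Wnt1 and Msx3 kept their calls whichever replicate was left out. Hoxa2, Hoxb2 and Olig3 missed the threshold without replicate 4 (adjusted p = 0.0612, 0.0755 and 0.0736), and Hoxc4 without replicate 1 (0.0539). Hoxa3 and Hoxb3 missed it whichever replicate was left out (0.0534 to 0.169).

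Of 24 mesenchyme and neural crest genes 5 were lower, none was higher and 19 did not pass, with a median of -0.82. In replicates 3 and 4 alone 15 were lower (752 of 17282 over all genes), against 0 in replicates 1 and 2 alone (181 of 18482 over all genes). The median of the log2 fold changes was -0.40 in replicates 1 and 2 and -1.25 in replicates 3 and 4. Prrx1, a mesenchyme homeobox gene, had 29.3, 14.8, 53.3 and 80.2 CPM in control and 10.3, 13.4, 11.0 and 25.3 CPM in LDHi+lactate. Control replicates 3 and 4 were the highest, the groups overlapped through control replicate 2, and the log2 fold change was -1.41 (SE 0.26, adjusted p = 0.0152). Alx1, of the periocular and facial mesenchyme, had 6.53, 4.09, 10.2 and 23.4 CPM in control and 3.36, 2.84, 0.378 and 3.31 CPM in LDHi+lactate, without overlap (log2 fold change -2.08, SE 0.53, adjusted p = 0.0407). Foxc1, a forkhead factor of the anterior eye, was at -1.74 (SE 0.38, adjusted p = 0.0268), and Snai2, a regulator of crest migration, at -1.24 (SE 0.23, adjusted p = 0.0151). Pax3, of the neural crest, did not pass (-0.73, adjusted p = 0.0521).

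The number of mesenchyme and crest genes called lower was 2 without replicate 1, 11 without replicate 2 and 0 without replicate 3 or 4. Prrx1 and Snai2 missed the threshold without replicate 1, 3 or 4 (adjusted p = 0.0534 to 0.0855), and so did Alx1 (0.0795 to 0.179), and Foxc1 missed it without replicate 3 or 4 (0.111 and 0.134). The summed level of the 4 mesenchyme markers overlapped between the groups (137.9 to 328.3 CPM in control and 119.9 to 139.8 CPM in LDHi+lactate). From control to LDHi+lactate it went from 137.9 to 122.1 and from 142.5 to 139.8 CPM in replicates 1 and 2, and from 199 to 124.6 and from 328.3 to 119.9 CPM in replicates 3 and 4. In replicates 1 and 2 most of this sum was Pdgfra, at 81.7 and 117.2 CPM in control and 98.6 and 110.1 CPM in LDHi+lactate. Pdgfra did not pass (adjusted p = 0.83). In the same replicates Twist1 went from 21.7 to 10.3 and from 8.86 to 14.9 CPM. The markers Prrx1, Twist1 and Pdgfra of the sum also belong to the list, and the part of cell content in these results was not tested.

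Some of the largest falls were in genes outside the lists. Igf1, insulin-like growth factor, had 10.2, 4.73, 20.1 and 43.4 CPM in control and 4.78, 2.97, 0.892 and 4.36 CPM in LDHi+lactate (log2 fold change -2.42, SE 0.55, adjusted p = 0.0291), and Igf2, of the list of imprinted genes, was at -1.35 (SE 0.34, adjusted p = 0.0409). Igfbp7, which binds insulin-like growth factors, was at -1.93 (SE 0.50, adjusted p = 0.0444), and it overlaps Polr2b on the other strand, which held 101240 counts against 2247. Tac1, the precursor of substance P, had 6.92, 6.73, 5.07 and 3.02 CPM in control and 2.145, 1.32, 0.378 and 0.642 CPM in LDHi+lactate, without overlap (-2.43, SE 0.35, adjusted p = 0.00701). Ddn, which encodes dendrin, was at -2.45 (SE 0.35, adjusted p = 0.00701), and the transcript Gm38534 at -2.05 (SE 0.41, adjusted p = 0.0186). Tac1 and Ddn kept their calls whichever replicate was left out, Igf1 missed it without replicate 1, 3 or 4 (adjusted p = 0.0606 to 0.142), Igf2 and Igfbp7 whichever of the 4 was left out (0.0528 to 0.16), and Gm38534 without replicate 1, 2 or 4 (0.0528 to 0.0848).

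Of 34 Wnt genes 5 were lower and none higher (median -0.23), and Fzd1, a Wnt receptor, had 182.2, 144.5, 127.3 and 128.3 CPM in control and 138.6, 89.0, 84.8 and 101.7 CPM in LDHi+lactate (log2 fold change -0.51, SE 0.08, adjusted p = 0.00951). Wnt5a did not pass (-0.55, adjusted p = 0.0571). Of 34 axon guidance genes 7 were lower and none higher (median -0.29). Plxna2, a semaphorin receptor, had 45.5, 42.0, 77.2 and 64.8 CPM in control and 31.8, 24.7, 27.7 and 35.5 CPM in LDHi+lactate, without overlap (-0.92, SE 0.15, adjusted p = 0.0107). The ephrin Efna5 was at -0.62 (SE 0.11, adjusted p = 0.0142), the Eph receptor Epha7 at -0.47 (SE 0.09, adjusted p = 0.0197), and Sema5a did not pass (-0.39, adjusted p = 0.0754). Without replicates 1, 2, 3 and 4, the Wnt list held 1, 4, 2 and 3 lower genes and the guidance list 1, 5, 1 and 1. Fzd1 missed the threshold without replicate 1 (adjusted p = 0.0534), Plxna2 without replicate 4 (0.0514), Efna5 without replicate 1, 2 or 3 (0.0544 to 0.0775) and Epha7 without replicate 1, 3 or 4 (0.0523 to 0.0848).

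Of 16 hedgehog and ventral forebrain genes tested 1 was higher and 2 lower (median -0.13). The coreceptors Cdon and Boc were at -0.63 (SE 0.10, adjusted p = 0.0107) and -0.48 (SE 0.13, adjusted p = 0.0476), while Foxa2 did not pass (0.53, adjusted p = 0.054). Of 23 BMP and Nodal genes tested 1 was higher and 1 lower (median -0.13). Gdf3, a ligand made by stem cells, had 6.10, 14.8, 5.80 and 5.42 CPM in control and 14.5, 30.3, 10.2 and 11.9 CPM in LDHi+lactate (log2 fold change 1.06, SE 0.19, adjusted p = 0.0139), and Bmp7, a ligand needed for eye development, was at -0.48 (SE 0.08, adjusted p = 0.0126). Chrd, a BMP antagonist, lay wholly below control and did not pass (-0.64, adjusted p = 0.0507). Boc missed the threshold whichever replicate was left out (adjusted p = 0.0726 to 0.137), Cdon and Bmp7 without replicate 1 or 3 (0.0514 to 0.0607), and Gdf3 without replicate 1 or 4 (0.0733 and 0.0712).

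None of 11 tested genes of lactate dehydrogenases and lactate carriers passed (median 0.11), but with replicates 3 and 4 alone 4 of 10 were higher, against 0 of 11 with replicates 1 and 2 alone. Over all genes tested, these fits called 506 of 17282 and 300 of 18482 higher. Ldha and Ldhb, the subunits of the inhibited enzyme, had log2 fold changes of 0.04 (SE 0.09, adjusted p = 0.8) and -0.02 (SE 0.08, adjusted p = 0.919), with Ldha at 973.6 to 1082.0 CPM in control and 910.3 to 1241.0 CPM in LDHi+lactate. The lactate carrier Slc16a1 was at 0.21 (SE 0.10, adjusted p = 0.22), and these 3 genes are outside the rule. Ldhd, the dehydrogenase of D-lactate, was at 1.01 (SE 0.34, adjusted p = 0.0916) at levels under 1.05 CPM, and it overlaps Znrf1, which held 23327 counts against 320. Of 20 glycolysis genes 2 were higher and 1 lower (median 0.16), with 7 higher and 1 lower in replicates 3 and 4 alone and 1 higher in replicates 1 and 2 alone. Pfkp, phosphofructokinase of platelet type, had 61.2, 69.9, 50.5 and 67.1 CPM in control and 73.1, 170.1, 91.3 and 77.3 CPM in LDHi+lactate, without overlap (0.66, SE 0.17, adjusted p = 0.042). Pfkfb3, which makes an activator of that enzyme, was at 0.46 (SE 0.09, adjusted p = 0.02), the muscle type gene Pfkm at -0.23 (SE 0.05, adjusted p = 0.0273), and Tigar did not pass (0.34, adjusted p = 0.0526).

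Pfkp overlaps Pitrm1 and Pfkm overlaps Senp1, at 173.5% and 77.4% of their counts, and Pfkp missed the threshold whichever replicate was left out (adjusted p = 0.0685 to 0.16), Pfkm without replicate 1, 3 or 4 (0.105 to 0.131) and Pfkfb3 without replicate 1 or 4 (0.0671 and 0.0956). Among 26 genes of pyruvate dehydrogenase and the citric acid cycle (median 0.02), Pdk2, a kinase that inhibits pyruvate dehydrogenase, was lower (-0.43, SE 0.10, adjusted p = 0.0278), a call lost whichever replicate was left out (0.0589 to 0.0940), and Pdp1 did not pass (-0.45, adjusted p = 0.115). Of 20 genes of NADH shuttles and NAD synthesis 3 were higher and 1 lower (median 0.06), with 4 higher in replicates 3 and 4 alone and 0 called in replicates 1 and 2 alone. The malic enzymes Me1 and Me2 were at 0.45 (adjusted p = 0.0228) and 0.41 (adjusted p = 0.0191), the NAD kinase Nadk at 0.35 (adjusted p = 0.014), and the shuttle carrier Slc25a13 at 0.24 (adjusted p = 0.11). Me1 and Me2 missed the threshold without replicate 1, 3 or 4 (0.0681 to 0.111) and Nadk without replicate 1 or 4 (0.0679 and 0.0734).

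Genes of the respiratory chain and the cell cycle gave no call. Over 35 nuclear-encoded respiratory chain genes the median was 0.05, and Ndufb10 came nearest to the threshold (0.21, adjusted p = 0.0511). Over 30 cell cycle and DNA replication genes the median was 0.08, and Cdc20, an activator of the anaphase-promoting complex, was at 0.16 (adjusted p = 0.054). Of 28 cholesterol genes 1 was higher (median 0.19), a count that fell to 0 without replicate 1, 3 or 4. With replicates 3 and 4 alone 14 of the 28 were higher (median 0.43), and with replicates 1 and 2 alone 0 were (median -0.11), a difference between the sets that was not tested for the list. Over all genes tested, these fits called 506 of 17282 and 300 of 18482 higher. Ebp was at 0.26 (adjusted p = 0.0547). Of 20 hypoxia genes outside glycolysis 2 were higher (median 0.11), with 5 higher in replicates 3 and 4 alone and 1 higher and 1 lower in replicates 1 and 2 alone. Ndrg1 had 28.2, 30.2, 27.7 and 34.8 CPM in control and 39.6, 50, 59.8 and 47.7 CPM in LDHi+lactate, without overlap (0.69, SE 0.11, adjusted p = 0.00897), and kept its call whichever replicate was left out. Kdm3a, a histone demethylase, was at 0.32 (SE 0.06, adjusted p = 0.0154, and 0.0553 to 0.063 without replicate 1, 2 or 4), and the hypoxia-induced hormone gene Adm did not pass (1.05, adjusted p = 0.11).

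Of 26 genes of histone acetylation 2 were higher and 4 lower (median 0.03). The deacetylases Hdac7, Hdac9 and Hdac11 were at -0.52 (SE 0.07, adjusted p = 0.00699), -0.97 (SE 0.19, adjusted p = 0.0183) and -0.34 (SE 0.07, adjusted p = 0.0233), and Sirt1 did not pass (0.32, adjusted p = 0.0587). Hdac7 had 70.8, 47.4, 60.9 and 64.2 CPM in control and 49.1, 36.01, 42.6 and 41.3 CPM in LDHi+lactate, with an overlap through control replicate 2, and it overlaps Slc48a1 at 70.8% of its counts. Both genes of the list called higher were among Hdac5, Kat2a and Kat2b, outside the rule for named genes (adjusted p = 0.0279, 0.0368 and 0.0392). Hdac7 missed the threshold without replicate 1 (adjusted p = 0.0523), Hdac9 without replicate 1, 2 or 3 (0.0687 to 0.0805) and Hdac11 whichever replicate was left out (0.0631 to 0.101). Hdac5 missed it without replicate 1, 3 or 4 (0.0966 to 0.108), Kat2a whichever replicate was left out (0.0861 to 0.2) and Kat2b without replicate 1, 2 or 4 (0.0774 to 0.159). Of 21 immediate early and heat shock genes 3 were higher (median 0.15). The chaperone genes Hsp90aa1 and Hsph1 were at 0.41 (SE 0.07, adjusted p = 0.0126) and 0.28 (SE 0.05, adjusted p = 0.0154), the phosphatase gene Dusp1 at 0.47 (SE 0.11, adjusted p = 0.0306), and the heme oxygenase gene Hmox1 at 0.48 (adjusted p = 0.0505). Hsp90aa1 and Hsph1 missed the threshold without replicate 1 or 4 (0.0597 to 0.0826), Dusp1 missed it whichever replicate was left out (0.0697 to 0.0926), and Dusp1 overlaps Ergic1, which held 541% of its counts.

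Of 26 tested ion and pH transport genes 5 were higher and 3 lower (median 0.04). Slc9a3r1, a scaffold of ion exchangers, was at 0.46 (SE 0.09, adjusted p = 0.0193), the sodium, potassium and chloride carrier Slc12a2 at 0.25 (SE 0.05, adjusted p = 0.0241), the sodium pump subunit Atp1b2 at -0.61 (SE 0.12, adjusted p = 0.0171) and the anion exchanger Slc4a3 at -0.38 (adjusted p = 0.0639). Of 30 imprinted genes 2 were higher and 2 lower (median 0.01). Ascl2, a trophoblast and stem cell factor, had 1.27 to 1.39 CPM in control and 1.98 to 3.43 CPM in LDHi+lactate (1.09, SE 0.27, adjusted p = 0.0383), Copg2 was at -0.25 (SE 0.06, adjusted p = 0.0269) and overlaps Mest, with 933664 counts against 42514, and Meg3 did not pass (-0.66, adjusted p = 0.0631). Of 22 tested mesoderm and endoderm genes 2 were higher (median 0.43), Pecam1 and Hnf4a, an endoderm factor at 0.70 (SE 0.16, adjusted p = 0.0277). The calls of Slc12a2 and Ascl2 were lost whichever replicate was left out (adjusted p = 0.0529 to 0.148), that of Slc9a3r1 without replicate 1, 2 or 3 (0.0596 to 0.0865), those of Atp1b2 and Hnf4a without replicate 1, 3 or 4 (0.0574 to 0.116), and that of Copg2 without replicate 1, 2 or 4 (0.0806 to 0.114).

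The difference from control was also compared between replicates 1 and 2 and replicates 3 and 4. By a term for the set in the same edgeR model 1 gene was called, with 1572 at an unadjusted p under 0.05. Col26a1, which encodes an extracellular matrix collagen, had 28.5 and 21.95 CPM in control and 19.2 and 22.9 CPM in LDHi+lactate in replicates 1 and 2, against 35.9 and 62.9 CPM and 6.80 and 10.6 CPM in replicates 3 and 4. Its log2 fold changes were -0.26 and -2.49 (difference -2.23, SE 0.22, adjusted p = 0.0368). With the replicates of each set alone, edgeR called 300 genes higher and 181 lower in replicates 1 and 2 and 506 and 752 in replicates 3 and 4. The set differs in label and depth at once, and these cannot be told apart.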

How the data were processed

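RNA was sequenced from 12 libraries of day 7 eye organoids in 4 independent experiments (poly(A) libraries, single reads of 50 bases). Per the labels, the authors used cutadapt 1.13, STAR and HTSeq 0.6.1p1 on mm10 and deposited raw counts per Ensembl gene without normalization. For the annotation release and strand setting, no value is given in the sources used here. Reads from overlapping genes therefore cannot be assigned by strand.

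Of 54232 gene IDs, 99.7% matched GENCODE vM21 for symbols and positions. Counts were fitted with edgeR 4.0.16 in R 4.3.3 (TMM, filterByExpr by group, all 12 libraries, quasi-likelihood test, replicate number as a block), with Benjamini-Hochberg adjustment over 17721 genes. Log2 fold changes are edgeR's, and CPM use TMM without a prior count. The pairing by number was taken as given for these samples and checked: deviations from group means correlated at 0.516 to 0.75 for the same number in control and LDHi+lactate (4 pairs), at -0.159 to 0.269 for different numbers within a set (4) and at -0.703 to 0.064 between sets (8). The numbers are not stated to mark shared cultures, so p values may measure technical spread in part. No 2 libraries of a group were repeats (chi-square per degree of freedom at least 27.6).

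Genes named are the 15 largest called changes in each direction among genes whose mean log2 CPM was 0 or more, the 14 eye genes, and up to 3 called members and 1 other per list. The comparison, the 33 lists and these rules were chosen with earlier results of these data known. Some genes that this rule takes are not reported here. Motifs were searched in RefSeq promoters (GRCm38.p6, 250 bases before to 50 after the start). Alternatives were DESeq2 1.42.0, no block, 8 libraries, other scalings and filters, each set alone and each replicate number left out. The code was tested on simulated data. Figures used matplotlib 3.10.9.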

Additional observations from a re-analysis of the deposited data

Results flagged for a closer look

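In groups of 4 libraries, 1 library of a named gene was flagged where its gap to the nearest other in log2 CPM, as a share of the group's range, exceeded Dixon's 95% critical value. This held in 15 of 268 groups, and chance flags about 1 in 20. In control replicate 2, Col8a1 had 0.936 CPM (13.1 to 18.1 in the other controls) and Tbx2 11.95 CPM (58.1 to 74.0), both low, while Gdf3 had 14.8 CPM (5.42 to 6.10) and Klf4 42.3 CPM (31.7 to 33.1), both high. In control replicate 4, Dhrs3 had 10.2 CPM (6.53 to 6.84), Hsph1 238.9 CPM (174.2 to 182.8) and Pdp1 23.8 CPM (14.7 to 15.8), all high, and Pax2 had 17.8 CPM (41.3 to 47.0), which was low.

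Among the LDHi+lactate libraries, replicate 3 was low for Alx1, at 0.378 CPM (2.84 to 3.36 in the others), and for Hoxb2, at 0.172 CPM (0.810 to 1.003), and high for Six3, at 121.8 CPM (64.0 to 71.3). Replicate 1 was low for Calcoco2, at 50.3 CPM (73.0 to 73.4), and for Spry1, at 29.3 CPM (59.7 to 63.8). Replicate 2 was high for Platr27, at 4.51 CPM (1.59 to 1.85), and replicate 4 for Sox2, at 574.1 CPM (451.2 to 467.3).

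The log2 fold change of Col26a1 against control differed between the sets, by -2.23 in replicates 3 and 4 relative to replicates 1 and 2 (adjusted p = 0.0368 for the difference, edgeR).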

How the results depend on the processing

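Without the replicate block, edgeR called 0 genes higher and 0 lower (smallest adjusted p 0.0954), against 740 and 686 with it, and none of the 91 named genes that were called. DESeq2 called 1253 higher and 1268 lower with the replicate block and 113 and 129 without it. With no filter 1146 genes were lower, and with replicates 1 and 2 alone 300 were higher and 181 lower. Leaving out 1 replicate number at a time gave 38 to 348 higher and 51 to 344 lower genes, and 27 to 70 of the 91 named calls, with the fewest without replicate 1. RLE size factors, library totals, at least 10 counts in every library, the 8 libraries of the comparison alone and replicates 3 and 4 alone moved both counts by less than 1.5 times. All 1426 genes called had the same direction under every alternative in which they were measured (1337 to 1426 genes). No named gene called in the main fit or in an alternative changed sign between the 2. Each alternative refits the same libraries or a part of them, so a kept direction among called genes is no independent evidence. Named genes that were not called could change sign with 1 replicate left out, as did Rax (log2 fold change -0.38 to 0.07) and Tbx5 (-1.29 to 0.80). Others such as Shisa2 kept their sign (-0.57 to -0.08).

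For the difference between sets, 1 gene was called, 0 to 22 with 1 replicate left out (0 without replicate 4, 22 without replicate 1), and 649 with no filter, of which 643 are among the genes that the filter keeps. The cause of these changes was not tested. Genes below about 1 CPM rest on few counts per library.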
